A study of Mus musculus with 2 samples.

Results

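A set of 6 mouse genes for secreted proteins were followed in single RANKL-treated bone marrow macrophages. These were Pgf (ENSMUSG00000004791), Cxcl14 (ENSMUSG00000021508), Nptx1 (ENSMUSG00000025582), Dmkn (ENSMUSG00000060962), Col4a1 (ENSMUSG00000031502) and Col4a2 (ENSMUSG00000031503), 6 of the 32544 genes counted. They were chosen by name, and earlier results of these data, in which most of them were higher in the mutant library and were seen together with each other or with Acp5, had led to that choice. Their levels in the libraries and their co-detection are therefore given as descriptions, with no test.

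The study asked how cells lacking Arid1a, a subunit of the BAF chromatin remodelling complex, pass from proliferating precursors to osteoclasts. Bone marrow cells of young mice were grown with M-CSF at 50 ng/ml and with RANKL at 100 ng/ml, the cytokines that make macrophages and osteoclasts, and were collected about a day after RANKL for 10x single-cell RNA sequencing. Both libraries had the same cytokines. The control library is labelled only as control. The mutant library came from LysM-Cre;Arid1afl/fl mice, in which Cre made from the Lyz2 locus of myeloid cells removes a floxed piece of Arid1a. There was 1 library per genotype, and how many animals each held is not given in the sources used here, so genotype and library cannot be told apart and no p-value is given. Every interval is a 95% interval for counting error alone.

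Osteoclasts are bone-resorbing cells that form when monocytes of the marrow respond to M-CSF and RANKL. Their precursors stop dividing, switch on genes for resorption such as Acp5, Ctsk and Mmp9, and fuse. Macrophages and osteoclasts also release signals to vessels and bone-forming cells. Placental growth factor, made from Pgf, is a ligand of the VEGF family that binds the receptor Flt1 and neuropilins. Cxcl14 is a chemokine found mostly in epithelia and macrophages. Neuronal pentraxin 1 (Nptx1) is a secreted protein known from synapses, and dermokine (Dmkn) a secreted protein known from skin. Col4a1 and Col4a2 encode the chains that assemble into the most widespread type IV collagen, the network-forming collagen of basement membranes.

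In GRCm39, with the GENCODE annotation, Pgf lies on the minus strand at chr12:85213409-85224564, Nptx1 on the minus strand at chr11:119428472-119438585, Dmkn on the plus strand at chr7:30463176-30480488 and Cxcl14 on the minus strand at chr13:56436352-56444603. Col4a1 (minus strand, chr8:11248423-11362826) and Col4a2 (plus strand, chr8:11362471-11499287) stand head to head, and their annotated 5′ ends overlap by 356 bases. The 3′ reads that are counted here come from the far ends of this pair. A single annotated gene, Gm15418, overlapped the last 1000 bases of any of the 6, on the strand opposite to Col4a1, and it had 0 UMIs in both libraries.

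The 250 bases before the annotated start are shown for Pgf and for Cxcl14, which were seldom seen in the same cell, and for Dmkn. No other counted gene overlaps them, and they are read 5′ to 3′ on the gene's strand from GRCm39. Capitals mark matches on either strand to 4 short promoter motifs, which do not overlap each other here. TATAAA is the TATA box. CCAAT is the box of that name. GGGCGG is the GC box, and TGANTCA is the AP-1 site.
Pgf (chr12:85224565-85224814): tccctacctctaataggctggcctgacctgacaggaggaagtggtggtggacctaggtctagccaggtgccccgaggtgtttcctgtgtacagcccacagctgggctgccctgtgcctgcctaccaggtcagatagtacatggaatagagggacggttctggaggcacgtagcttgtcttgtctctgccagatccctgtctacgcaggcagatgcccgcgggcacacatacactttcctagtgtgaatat
Dmkn (chr7:30462926-30463175): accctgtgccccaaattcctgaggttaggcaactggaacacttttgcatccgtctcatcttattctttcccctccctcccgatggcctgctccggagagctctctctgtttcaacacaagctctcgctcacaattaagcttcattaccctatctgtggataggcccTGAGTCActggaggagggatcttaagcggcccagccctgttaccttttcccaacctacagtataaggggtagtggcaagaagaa
Cxcl14 (chr13:56444604-56444853): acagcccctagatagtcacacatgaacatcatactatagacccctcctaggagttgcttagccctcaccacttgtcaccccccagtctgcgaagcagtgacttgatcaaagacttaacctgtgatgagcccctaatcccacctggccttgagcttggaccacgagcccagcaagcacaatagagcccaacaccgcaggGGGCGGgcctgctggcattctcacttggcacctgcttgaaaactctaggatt
The Pgf window was 56.8% G and C, that of Cxcl14 54.0% and that of Dmkn 51.2%. Cxcl14 held 1 GC box, which 30.1% of 21488 such windows in the genome hold. Dmkn held 1 AP-1 match, a motif in 6.46% of windows. Pgf held none of these motifs, and none of these windows had TATAAA, which 12.5% of windows have. The windows of Col4a1 and Col4a2, each inside the partner gene, are not printed. A match of letters is no evidence of binding.

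The control library held 6269 cells and the mutant library 5663 after the filters, with a median of 23978 and 21734 UMIs (distinct transcript molecules) per cell. The targeted gene checked the labels in direction: Arid1a was at 51.9 UMIs per 1000000 (CPM) in the control library and 20.4 in the mutant, a log2 ratio of -1.35 (-1.41 to -1.28). Transcripts that lost the floxed piece but kept their 3′ end are still counted. Of the 10 monocytic markers listed, Cd68 was seen in 6129 control and 5419 mutant cells before thinning, and Csf1r in 6002 and 5328. Others were rarer: Mertk was in 234 and 376, C1qa in 1911 mutant cells and Fcgr1 in 1819 control cells. Of the 10, 9 had a mean of at least 5 CPM, with 3 at least 2-fold higher in the mutant library and 0 at least 2-fold lower. C1qa, C1qb and C1qc were lower there by less than that (log2 ratios of -0.82, -0.88 and -0.63). Of the 12 osteoclast genes listed, 7 had a mean of at least 5 CPM, and 5 of these were at least 2-fold lower in the mutant library. Of these 5, Dcstamp (11.8 and 2.30 CPM) reached that mean only through the control library. Over all 8650 genes with such a mean, 5.9% were at least 2-fold higher in the mutant library and 1.62% at least 2-fold lower. Neutrophil marker genes were higher in the mutant library, where 89 cells (1.57%) against 19 (0.303%) took at least 1% of their UMIs from them. Shares of cells are given after each cell was thinned to 5000 UMIs, which left 6101 control and 5312 mutant cells. The libraries shared 8 barcodes.

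Of the 6 genes 5 were at least 2-fold higher in the mutant library, and Pgf was 1.14-fold higher. Their median log2 ratio was 2.00, against 0.052 over the 8650 genes whose mean reached 5 CPM, a filter that all 6 passed. Col4a1 and Col4a2, at 1.26 and 2.11 CPM in the control library, passed it only through the mutant library. The filter thus favoured a higher mutant level for this pair. Of those 8650 genes 5.9% were 2-fold or more higher and 1.62% 2-fold or more lower, and none of the 6 was in the second set. In order of ratio they were Col4a1, Col4a2, Cxcl14, Dmkn, Nptx1 and Pgf. The intervals of Col4a1 and Col4a2 overlapped and those of the other neighbours did not. The choice of the genes had used these ratios. Nptx1 lay at the 2-fold line, with log2 ratios of 0.90 to 1.02 over other scalings and cell filters, and Pgf ranged from 0.081 to 0.21.

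**Figure D1:**
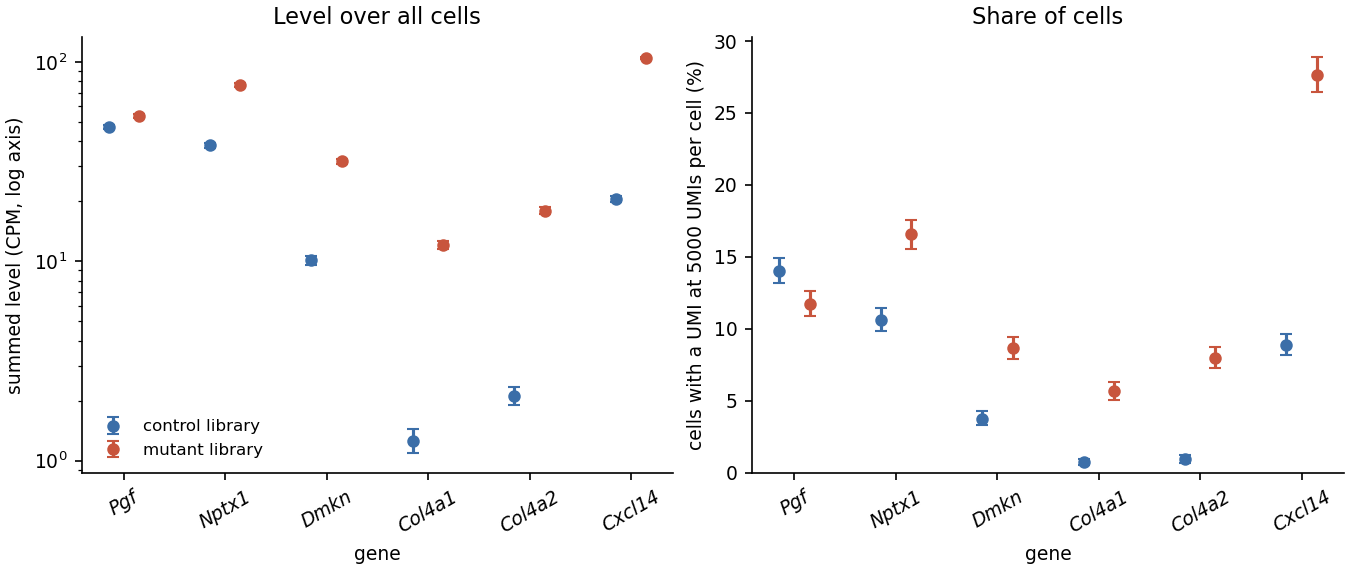
Summed level in CPM (left, log axis) and share of cells with at least 1 UMI after thinning to 5000 UMIs (right) for the 6 genes in the control (blue) and mutant (red) library. Bars are 95% counting intervals, there is 1 library per genotype, and Pgf is the gene whose level was higher but whose share was lower in the mutant library.

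Pgf was at 47.2 CPM (46.1 to 48.3) in the control library and 53.8 CPM (52.6 to 55.1) in the mutant, a log2 ratio of 0.19 (0.14 to 0.24). The share of cells with a Pgf UMI went the other way, with 14.0% of control cells and 11.7% of mutant cells, a difference of -2.32 percentage points (-3.56 to -1.08). A cell with Pgf held a mean of 1.70 thinned UMIs in the control library and 2.43 in the mutant, while the median before thinning was 2 UMIs in both. In the neutrophil gate, which should lack the gene, 1 of 17 control cells (5.88%) and 2 of 75 mutant cells (2.67%) had a Pgf UMI, at median depths of 7523 and 9907 UMIs before thinning.

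Part of the Pgf signal was held by few cells. In the control library the top 1% of cells held 18.9% of its UMIs, less than for any other of the 6 but Cxcl14 (16.4%). In the mutant library the top 1% held 26.4%, more than for any other but Dmkn (31.6%). In the control library 181 cells (2.89%) had 10 or more Pgf UMIs and carried 37.5% of them, and in the mutant 219 cells (3.87%) carried 59.0%. These cells are chosen by Pgf, so their other genes are described without a test. Nptx1 was at 118 CPM in the Pgf-rich control cells against 34.9 in the other cells, and at 372 against 61.9 in the mutant. Cxcl14 was lower in them, at 5.45 against 21.2 CPM in control cells and 33.1 against 108 in the mutant library. Mmp9, a secreted protease of osteoclasts, was at 96.0 against 56.5 CPM in the control library and 33.8 against 4.65 in the mutant, and Dcstamp, which serves fusion, was at 27.2 against 11.2 and 10.5 against 1.89. Ctsk and Acp5 were not higher in Pgf-rich control cells (54.0 against 57.1 CPM and 101 against 105) but were in Pgf-rich mutant cells (47.4 against 19.2 and 193 against 62.7). A pair of macrophage genes named after their values were seen were lower in Pgf-rich cells: Lyz2 was at 3876 against 11077 CPM in control cells and 1837 against 5613 in the mutant, and Adgre1 at 76.9 against 150 and 279 against 547. By the gates, 16.6% of Pgf-rich control cells and 15.1% of Pgf-rich mutant cells were in the osteoclast gate defined below, so most were not. That gate took 600 of the 6101 thinned control cells and 182 of the 5312 thinned mutant cells, a smaller share in both libraries.

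Cxcl14 had the largest difference in the share of cells among the 6. It was at 20.6 CPM (19.9 to 21.3) in control cells and 105 CPM (103 to 106) in the mutant library, 5.07-fold higher, with a log2 ratio of 2.34 (2.29 to 2.40). A UMI was found in 8.90% of control cells and 27.7% of mutant cells, a gap of 18.8 percentage points (17.3 to 20.2). Of the neutrophil-gate cells, 0 of 17 in the control library, which at 3 counts of the total allows a share of up to 17.6%, and 5 of 75 (6.67%) in the mutant had one. Cells with at least 10 UMIs numbered 17 in control cells and 406 in the mutant library.

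Nptx1 was at 38.1 CPM (37.2 to 39.1) in the control library and 76.7 CPM (75.2 to 78.2) in the mutant, a log2 ratio of 1.01 (0.96 to 1.06). The share of cells with a UMI was 10.6% and 16.6%. Dmkn was at 10.1 CPM (9.62 to 10.6) and 31.7 CPM (30.7 to 32.7), a log2 ratio of 1.65 (1.57 to 1.73), with 3.75% and 8.66% of cells. Dmkn was the more uneven of the pair: the top 1% of cells held 30.01% of its control and 31.6% of its mutant UMIs, against 20.99% and 21.29% for Nptx1. In the mutant neutrophil gate 6.67% of cells had Nptx1 and 2.67% had Dmkn.

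The collagen chains were scarce in the control library. Col4a1 had 206 UMIs there, or 1.26 CPM (1.09 to 1.44), and 1586 in the mutant, or 12.1 CPM (11.5 to 12.7), 9.58-fold higher, with a log2 ratio of 3.26 (3.05 to 3.48). Col4a2 had 346 and 2352 UMIs, 2.11 CPM (1.90 to 2.35) and 17.9 CPM (17.2 to 18.6), 8.46-fold higher, with a log2 ratio of 3.08 (2.92 to 3.25). Among control cells 0.721% had Col4a1 and 0.934% had Col4a2, and among mutant cells 5.67% and 8.0%. Detection was thin and spread over many cells, with 1.16 and 1.23 thinned UMIs per positive mutant cell. The control neutrophil gate had 0 of 17 cells with either chain, which allows up to 17.6%, so these control shares could not be set apart from background by that comparison. In the mutant neutrophil gate 1 of 75 cells (1.33%) had Col4a1 and 0 of 75 had Col4a2, which at 3 counts allows up to 4.0%.

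Type IV collagen is made by fibroblasts and endothelium, so markers of those cells were summed. A stromal gate (Col1a1, Col1a2, Col3a1, Sparc, Dcn, Lum) took 5 control and 4 mutant cells, and in the 4 mutant cells Col4a1 was at 256 CPM (185 to 344) and Col4a2 at 226 CPM (160 to 310). Those cells held 43 of the 1586 mutant Col4a1 UMIs. Without the stromal and neutrophil gates the log2 ratios were 3.26 for Col4a1, 3.08 for Col4a2, 2.35 for Cxcl14, 1.66 for Dmkn, 1.02 for Nptx1 and 0.20 for Pgf. The 6 stromal markers summed to 6.17 CPM in the control library and 11.6 in the mutant, of which Lum had 0 UMIs in the mutant. The 8 endothelial markers summed to 7.36 and 12.7 CPM, with Tek, Emcn and Cldn5 at 0 in both. Kdr made up most of both sums (5.38 and 11.7 CPM), while Cdh5 (0.526 and 0.243) and Egfl7 (1.30 and 0.631) were lower in the mutant library. The 6 epithelial markers summed to 0.275 and 0.152 CPM, with Krt5, Krt14 and Krt8 at 0 in both.

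Cells with several of the genes were more frequent in the mutant library, where each gene except Pgf was by itself seen in a larger share of cells. What those shares alone would give was not worked out. At least 1 of the 6 was seen in 32.7% of control and 53.5% of mutant cells, and at least 2 in 5.74% (5.17 to 6.35) and 18.2% (17.2 to 19.3). Cells with 3 numbered 30 and 228, and 1 mutant cell had all 6.

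Which genes shared cells was uneven. In the control library Pgf was seen in 31.1% of cells with Nptx1 and 12.01% of cells without, a ratio of 2.59 (202 cells with both). In the mutant library the shares were 32.5% and 7.60%, a ratio of 4.27 (286 cells with both). The collagen chains were seen together in 7 control cells and 81 mutant cells: Col4a1 was in 12.3% of control cells with Col4a2 and 0.612% of those without, and in 19.1% and 4.50% in the mutant. Pgf and Cxcl14 went apart in both libraries, with Pgf in 5.52% of control cells with Cxcl14 and 14.9% of those without, and in 6.54% and 13.7% in the mutant. Nptx1 and Cxcl14 had a ratio of 0.41 in control cells and 0.89 in the mutant library, where the difference, -1.92 points (-4.09 to 0.35), did not exceed counting error. In the mutant library, Dmkn was seen more often in cells with any of Pgf, Nptx1, Col4a1 or Col4a2, by ratios of 1.71 to 2.03, and not beyond counting error with Cxcl14 (1.13).

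**Figure D2:**
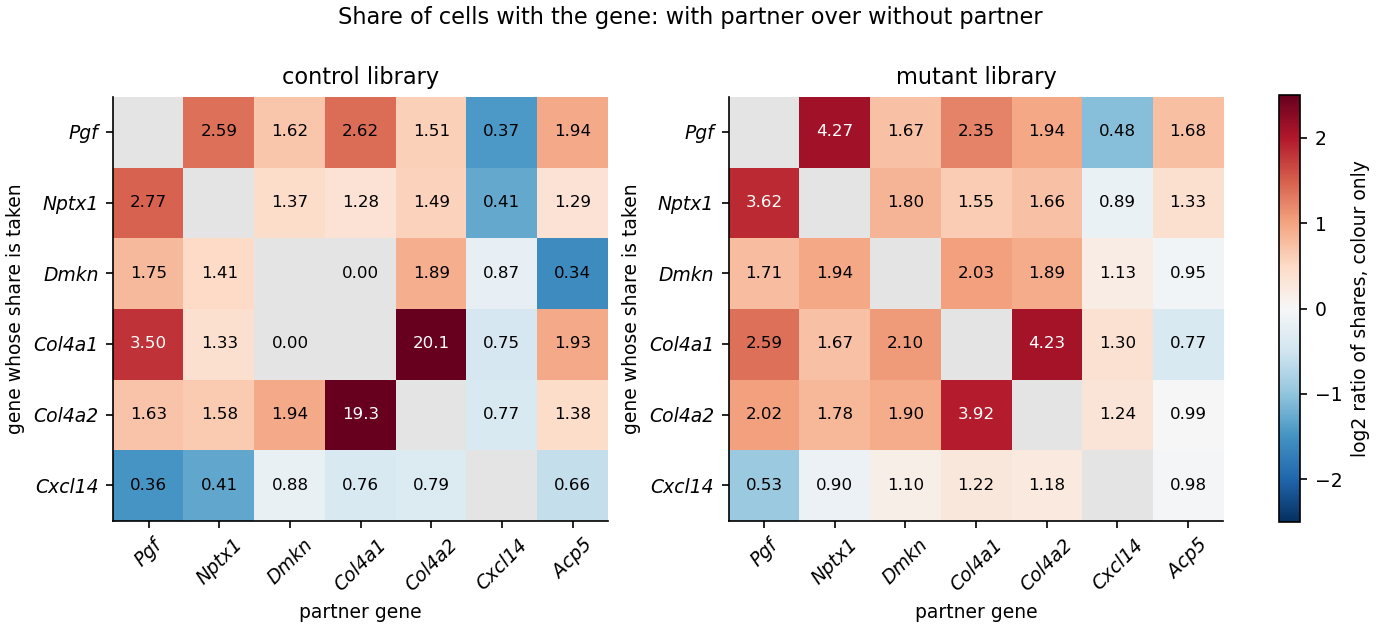
Share of cells with the row gene among cells with the column gene, divided by the share among cells without it, in the control (left) and mutant (right) library, with the ratio printed and its log2 as colour. Grey squares are the gene with itself or pairs seen in 0 cells, the Col4a1 and Col4a2 ratios of 20.1 and 19.3 in the control library rest on 7 cells, and Pgf with Cxcl14 was below 1 in both libraries.

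Across cells these relations were weak. Pearson's r of log thinned counts was 0.190 in 6101 control cells and 0.332 in 5312 mutant cells for Pgf with Nptx1, 0.136 and 0.187 for Col4a1 with Col4a2, and -0.075 and -0.105 for Pgf with Cxcl14. Cells of a library share its chemistry and depth, so these are descriptions.

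The genes closest to each member were then taken from outside the 6. For Pgf across control cells Jdp2, a transcription factor of osteoclast precursors, came first (r of 0.309, and 0.450 in the mutant library). Nrp2, a neuropilin receptor (0.308 and 0.329), Sec11c (0.263 and 0.240), S100a10 (0.223 and 0.268) and Gas7 (0.220 and 0.173) followed. Those closest to Nptx1 across mutant cells were again led by Jdp2 (0.264, and 0.142 in the control library) and Nrp2 (0.233 and 0.177), followed by Ywhah, S100a4 and S100a6. Pgf was in 29.2% of control cells with Jdp2 and 6.44% of those without, and in 37.7% and 6.27% in the mutant, although Jdp2 itself was lower in the mutant library (152 against 60.3 CPM). For Col4a1 and Col4a2 the closest gene outside the 6 was Ly6a, a surface antigen. The r was only 0.147 and 0.177 in the mutant and 0.037 and 0.024 in the control library. Their next closest were Rpsa, Ywhah, Rpl32 and Ptma for Col4a1, and Ywhah, Rpl14, F11r and Rps20 for Col4a2, all below 0.15. Dmkn had S100a10, S100a6, Lmna, S100a4 and Rpl13, at 0.167 or less. Cxcl14 had Tgfbi (0.163), Gapdh, Ctsc, Gm45716 and Cx3cr1.

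Osteoclast state was set by a gate of 3 or more thinned UMIs over Ctsk, Mmp9, Acp5 and Dcstamp, which took 600 control and 182 mutant cells. Pgf was higher inside it. In the control library it was at 83.7 CPM (79.6 to 88.0) inside and 42.6 (41.5 to 43.6) outside, and in the mutant at 222 CPM (208 to 236) and 47.8 (46.6 to 49.0), log2 ratios of 0.98 (0.90 to 1.06) and 2.21 (2.12 to 2.31). Nptx1 differed little in the control library (41.1 against 37.8 CPM) and was higher inside the gate in the mutant (145 against 74.5 CPM, log2 ratio 0.96, 0.85 to 1.08). Cxcl14 was lower inside the gate in both, at 5.77 against 22.5 CPM in control cells and 66.0 against 106 in the mutant, and so was Dmkn, at 6.63 against 10.6 and 19.5 against 32.3. For Col4a1 the intervals of the log2 ratio held 0 in both libraries (-0.01 to 1.12 and -0.36 to 0.43), but with doublets removed the control ratio was 0.69 (0.10 to 1.23). Col4a2 had 0.03 (-0.48 to 0.51) in control cells and 0.44 (0.15 to 0.72) in the mutant library.

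Read against all genes, 1.7% of 8508 genes in the control library were 2-fold or more higher inside the gate and 4.5% lower. Of the 4 members that passed the filter there, 0 were in the first set and Cxcl14 was in the second. Pgf stood just under the line there, and with doublets removed its log2 ratio was 1.03 (0.94 to 1.11), past it. In the mutant library 1.35% of 8747 genes were higher, and 1 of the 6, Pgf, was among them. Since the genes were chosen partly for being seen with Acp5, one of the gate's genes, nothing more is read from these counts.

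Between libraries within the gate, all 6 genes were at least 2-fold higher in the mutant, among 9.87% of 8638 genes, and outside it 4 of the 6, among 5.47% of 8635. Inside and outside the gate, Col4a1 and Col4a2 passed the filter only through the mutant library. The ratios of Pgf and Cxcl14 differed most with the set of cells taken. The log2 ratio of Pgf was 1.41 (1.29 to 1.52) inside and 0.17 (0.12 to 0.22) outside. Nptx1 had 1.82 and 0.98, and Cxcl14 3.52 (3.19 to 3.85) and 2.24 (2.18 to 2.29). The ratios of Col4a1 (2.81 and 3.34), Col4a2 (3.47 and 3.06) and Dmkn (1.56 and 1.61) had overlapping intervals. The gate held cells with a median of 27834 UMIs in the control library and 22312 in the mutant.

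**Figure D3:**
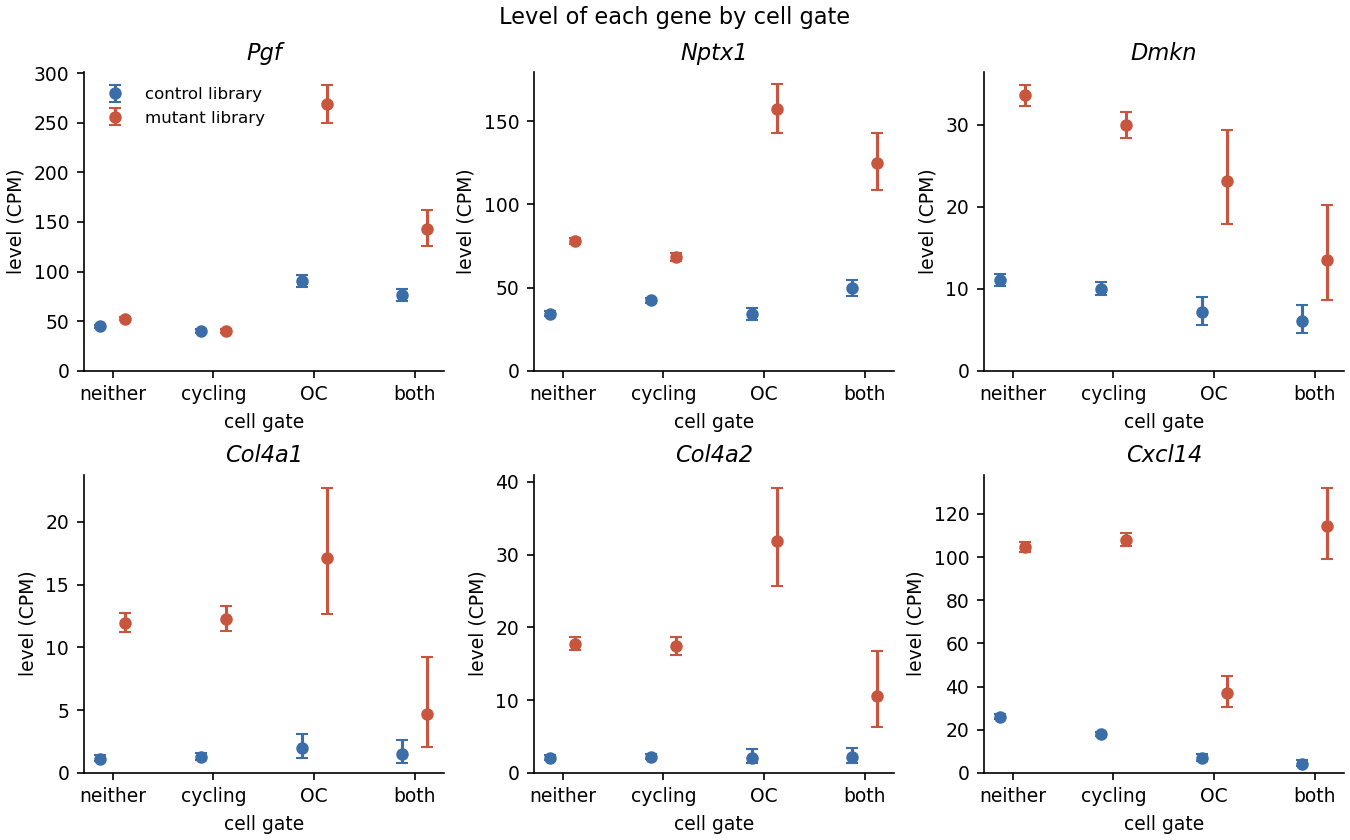
Level in CPM of each gene in cells in neither gate, in the cycling gate alone, in the osteoclast (OC) gate alone and in both, for the control (blue) and mutant (red) library, with 95% counting intervals. Pgf and Nptx1 were highest in the mutant OC gate alone (126 cells, 269 and 157 CPM), Cxcl14 was lowest there among mutant states, and the mutant state with both gates rests on 56 cells.

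Dividing cells were marked by 3 or more thinned UMIs over Mki67, Top2a, Aurka and Cdk1, which took 2412 control and 1773 mutant cells. Taken over all cells, none of the members tested was 2-fold different between cycling and other cells in either library. Of all genes 2.23% of 8519 were in control cells and 3.38% of 8724 in the mutant. Within the mutant osteoclast gate 3 of the 6 differed 2-fold, among 6.4% of 8707 genes. Cxcl14 was higher in its cycling cells (115 against 37.1 CPM), and at 108 CPM in cycling cells outside the gate. Col4a1 (4.70 against 17.2) and Col4a2 (10.6 against 31.9) were lower, on 8 and 18 UMIs in the cycling cells. Within the control gate 0 of the 4 tested differed 2-fold, among 2.53% of 8421. Cxcl14 was lower in the cycling cells of that gate (4.21 against 7.10 CPM, on 36 and 71 UMIs). At least 1 of the 6 was seen in nearly the same share of cycling and other cells, with differences of 0.157 percentage points (-2.27 to 2.60) in control cells and -0.388 (-3.26 to 2.48) in the mutant library. Pgf was lower in cycling cells, with log2 ratios of -0.16 (-0.23 to -0.10) and -0.45 (-0.52 to -0.37). Dmkn was also lower, at -0.16 (-0.30 to -0.02) and -0.18 (-0.27 to -0.09). The intervals of Col4a1 and Col4a2 held 0 in both libraries. Nptx1 was higher in cycling control cells (43.2 against 34.3 CPM) and lower in cycling mutant cells (70.4 against 80.7). Cxcl14 was lower in cycling control cells (16.3 against 23.9 CPM) and close to level in the mutant (108 against 102).

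Acp5 encodes tartrate-resistant acid phosphatase, the enzyme stained to find osteoclasts. It was at 105 CPM in control cells and 69.0 in the mutant library, yet a thinned UMI was found in 16.2% of control (991) and 21.05% of mutant cells (1118), so its share and its level went opposite ways. At least 1 of the 6 genes was seen in 39.3% of Acp5-positive and 31.4% of Acp5-negative control cells, a difference of 7.82 points (4.51 to 11.2), and in 57.9% and 52.3% in the mutant, 5.53 points (2.21 to 8.82). Without the neutrophil and stromal gates the mutant difference was 3.52 points (0.18 to 6.84). Pgf had the largest difference of the 6. It was seen in 23.6% of Acp5-positive and 12.2% of Acp5-negative control cells, and in 17.3% and 10.3% in the mutant. In the mutant library Pgf alone of the 6 was 2-fold or more higher in Acp5-positive cells by level (95.5 against 42.5 CPM), among 0.161% of 8704 genes, and in the control 0 of the 4 members tested were, against 0.894% of 8499 genes.

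In Acp5-negative cells Pgf did not differ between libraries beyond counting error, at 42.0 CPM in control cells and 42.5 in the mutant, a log2 ratio of 0.02 (-0.04 to 0.07). In Acp5-positive cells the ratio was 0.43 (0.34 to 0.51). The other 5 genes were higher in the mutant library in both sets of cells, by log2 ratios of 0.99 to 3.50 in Acp5-negative and 1.02 to 3.15 in Acp5-positive cells. Nptx1 was a little higher with Acp5 in both libraries, at 0.31 (0.22 to 0.39) and 0.33 (0.27 to 0.40) on the log2 scale. Dmkn was lower with Acp5, by -0.82 (-1.05 to -0.60) in control cells and -0.22 (-0.33 to -0.10) in the mutant. Cxcl14 was lower with Acp5 in the control library, -0.60 (-0.75 to -0.45), and its interval held 0 in the mutant, -0.03 (-0.09 to 0.03).

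The number of Acp5 UMIs in a cell separated the libraries further. In the control library Pgf was at 42.0 CPM in the 5110 cells with none, 60.7 in the 551 with 1, 99.7 in the 280 with 2 to 4, and 53.6 (47.5 to 60.1) in the 160 with 5 or more. In the mutant library the levels were 42.5, 79.5, 103 and 335 CPM (302 to 371), the last over 43 cells. Nptx1 had a like order in the mutant library, 72.9, 78.2, 108 and 231 CPM, while in the control library it was lowest in the cells with most Acp5 (25.4 CPM). Cxcl14 was at 4.85 CPM in control cells and 22.6 CPM in mutant cells with 5 or more Acp5 UMIs, its lowest level in each library.

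**Figure D4:**
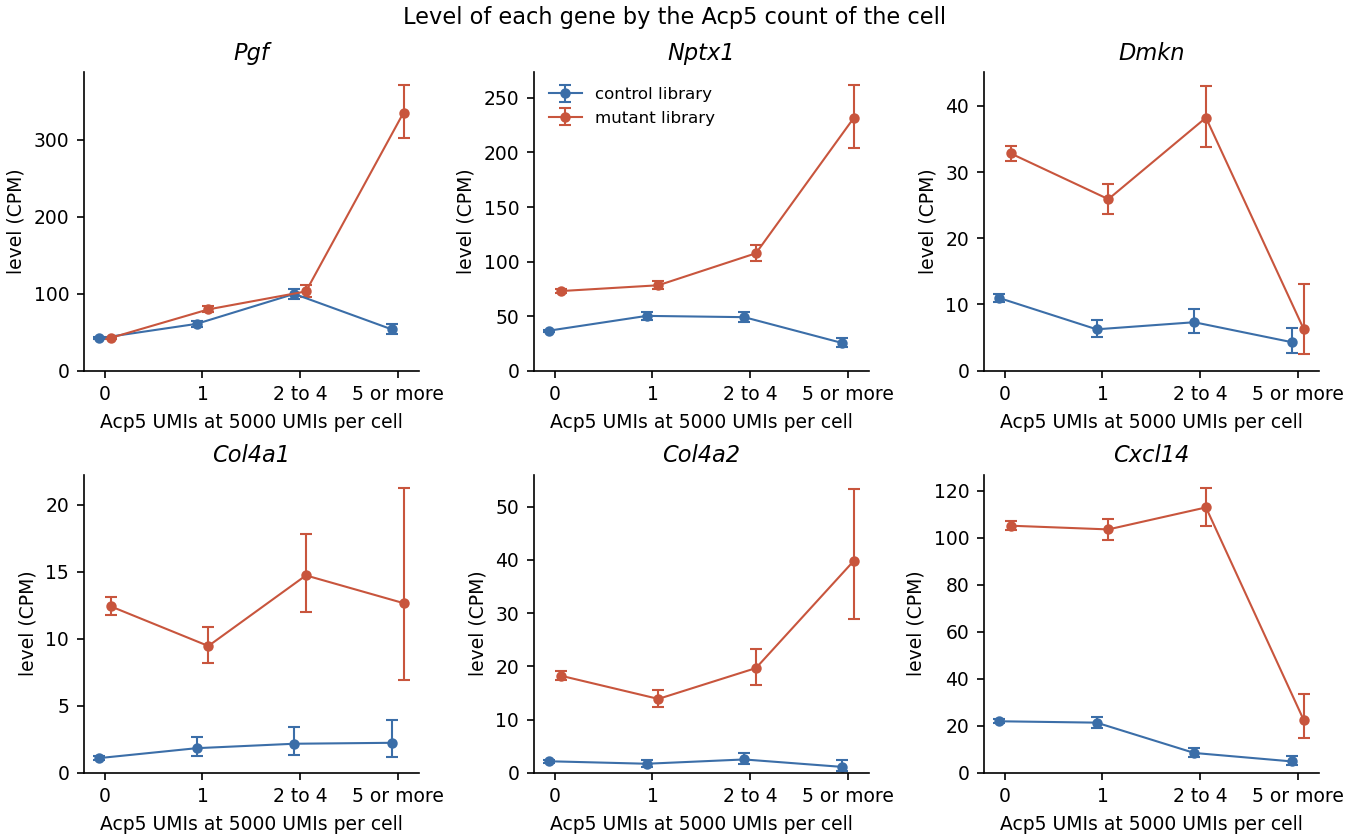
Level in CPM of each gene in cells with 0, 1, 2 to 4 and 5 or more thinned Acp5 UMIs, in the control (blue) and mutant (red) library, with 95% counting intervals and lines joining the bins. Pgf and Nptx1 were at 335 and 231 CPM in the 43 mutant cells with most Acp5, and at 53.6 and 25.4 CPM in the 160 such control cells.

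The targeted gene was also read within each library. In the mutant library Arid1a was at 22.3 CPM in cells with Pgf and 20.1 in cells without, a log2 ratio of 0.15 (-0.02 to 0.31), and at 19.5 and 20.7 CPM with and without Cxcl14. For each of the 6 genes the interval of this ratio held 0 in the mutant library. In the mutant osteoclast gate Arid1a was at 27.0 CPM against 20.1 outside, a log2 ratio of 0.42 (0.15 to 0.68), and in the control gate at 48.5 against 52.3.

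Cells with 2 or more of the genes carried more osteoclast and less monocytic marker signal than cells with none. The 12 osteoclast genes summed to 649 CPM in such control cells and 440 in cells with none, and to 334 and 151 CPM in the mutant library. That list holds Acp5, with which the members were partly chosen, and Jdp2, the gene closest to Pgf and Nptx1. The higher sums are therefore descriptions, and they were not split by gene. The 10 monocytic genes summed to 1227 and 2373 CPM in control cells and 2234 and 3377 in the mutant. Markers of other cell types differed as well. Neutrophil markers were at 8.36 CPM in control cells with 2 or more members and 320 in cells with none, and at 312 and 3544 CPM in the mutant. Stromal markers were at 29.2 and 3.61 CPM in control cells and 11.4 and 0.453 in the mutant. Mutant cells with 1 member had more, at 26.3 CPM, and the stromal gate held only 5 control and 4 mutant cells. The part of neutrophil and stromal cells in the co-detection was not tested beyond leaving those gates out. That put the share of cells with 2 or more members at 5.56% in control cells and 19.0% in the mutant library.

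Relatives of the 6 genes differed in direction from list to list. Of 23 further basement membrane genes 4 passed the filter, with a median log2 ratio of -0.11, and 1 was past 2-fold. Over all 8650 genes 7.51% were past 2-fold in either direction. That 1 gene was Col18a1, the collagen that yields endostatin. It was at 86.2 CPM in control cells and 195 in the mutant library, a log2 ratio of 1.18 (1.15 to 1.21). Lamc1, a laminin chain, was at 15.0 and 9.87 CPM, Agrn (agrin) at 6.52 and 6.38, and Col4a5 at 6.66 and 5.85. Thus of the type IV chains Col4a5 was the only other one past the filter, and Col4a3 had 0 UMIs in both libraries. Of 15 genes for collagen folding and processing 9 passed, with a median of 0.11, and 0 were past 2-fold in either direction. Ppib, a prolyl isomerase, was at 357 and 405 CPM, P4hb, a subunit of prolyl 4-hydroxylase, at 222 in both, Colgalt1, a collagen galactosyltransferase, at 104 and 109, and Plod1, a lysyl hydroxylase, at 58.8 and 63.2.

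Of 9 further VEGF ligands and receptors 5 passed. Kdr, the main VEGF receptor of endothelium, was higher in the mutant library (5.38 and 11.7 CPM, log2 ratio 1.12, 1.00 to 1.24), and Vegfc, a lymphatic growth factor, was lower (28.0 and 7.86 CPM, -1.83, -1.93 to -1.74). The neuropilins went apart, with Nrp2 at 717 and 400 CPM and Nrp1 at 25.3 and 38.4, and Vegfb was at 23.8 and 17.9. Flt1, named here as the receptor of Pgf, was below the filter, at 0.299 CPM in control cells and 1.21 in the mutant. None of the 5 other pentraxin genes passed, and Nptxr, a membrane-bound pentraxin, was at 5.48 and 1.18 CPM. Of the chemokine relatives of Cxcl14, 6 of the 11 in the table passed and all 6 were at least 2-fold higher in the mutant library. Over all 8650 genes past the filter 5.9% were. Among the 6 were Cxcl16 (157 and 373 CPM), Cxcl10 (134 and 345), Cxcl2 (96.0 and 373) and Cxcr4, the receptor of Cxcl12 (2.67 and 23.2). Cxcr4, Cxcl1 and Cxcl3 were below 5 CPM in the control library and passed only through the mutant library. The filter thus favoured a higher mutant level for these genes. Neither Sbsn (1.78 and 0.791 CPM) nor Krtdap (0.0367 and 0.327), skin genes listed with Dmkn as its neighbours, passed.

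**Figure D5:**
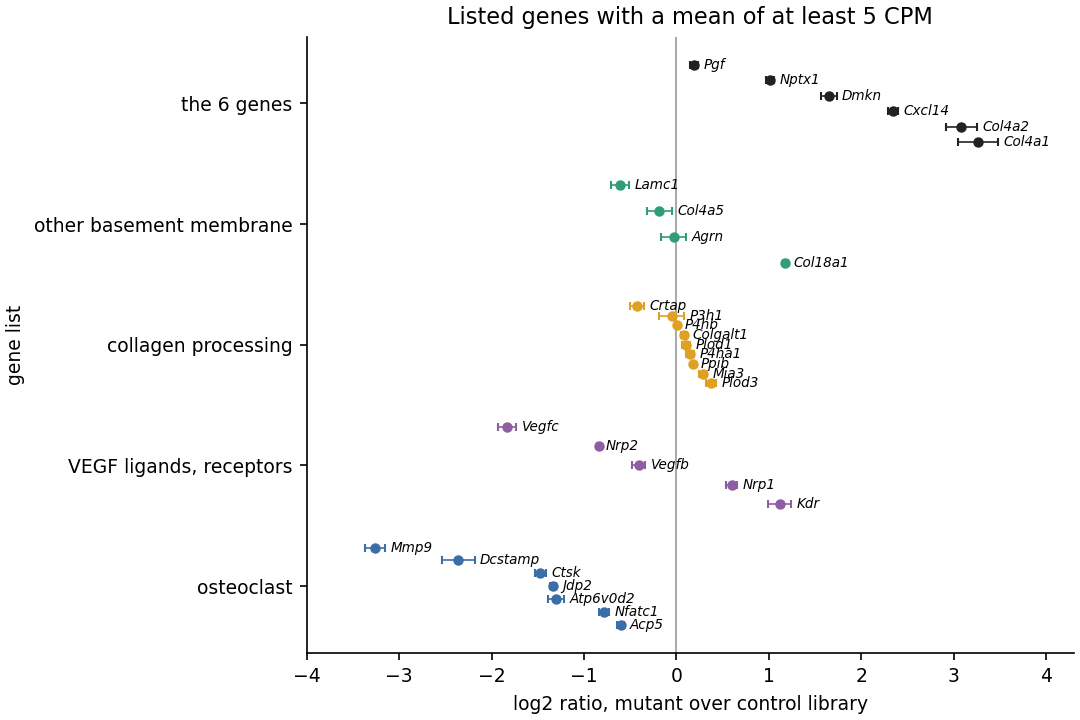
Log2 ratio of mutant over control level, with 95% counting intervals, for the 6 genes and for the genes of 4 lists whose mean reached 5 CPM. Of the 6 genes 5 lie at 1.01 or above, collagen processing genes lie between -0.43 and 0.37, and all 7 osteoclast genes lie below 0.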

How the data were processed

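One control and 1 LysM-Cre;Arid1afl/fl library were analysed. The authors deposited raw UMI counts per gene and barcode. The submitters' processing notes and file headers name Cell Ranger 6.1.0 and GRCm39, and the deposited barcodes (6455 and 5865) are already called cells. Cells with at least 500 genes and at most 10% mitochondrial UMIs were kept, and 186 and 202 barcodes left out. Levels are summed UMIs per 1000000 UMIs (CPM) with exact Poisson intervals, ratios have exact conditional intervals, and shares have Clopper-Pearson intervals after thinning to 5000 UMIs (for a count of 0 the limit given is 3 counts of the total), which left out 168 control and 351 mutant cells as too shallow. PCR duplicates were already collapsed by UMI, and intervals cover counting error only. No doublet removal was stated, so doublets stayed in and were scored against simulated ones as an alternative. No test was run, since each genotype had 1 library. Lists with a mean of at least 5 CPM were counted at 2-fold. The genes named are all 6 members and the 4 genes of each list with the highest mean CPM. Every VEGF, pentraxin or basement membrane gene past 2-fold is named too. So are the 5 genes outside the 6 closest to each member by r, among those seen in at least 1% of cells. Further genes of the lists are named where a list was mixed or a gene passed through 1 library. Members and lists were chosen with earlier results of these data known. Of 32544 gene IDs 31977 matched the annotation. Cxcl11 was not analysed here. The upstream sequence of Nptx1 is not reported here. Python 3.11.15, numpy 2.4.6, scipy 1.17.1 and edgeR 4.0.16 (TMM factors only) were used, and the interval code was tested on simulated data.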

Additional observations from a re-analysis of the deposited data

Results flagged for a closer look

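Only the cycling, Acp5 and osteoclast-gate splits over all cells were screened for opposite directions. In 3 of those comparisons the values went one way in the control library and the other way in the mutant library. Finer splits were not screened, and some reversed too. Within the osteoclast gate the log2 ratios of cycling over other cells were -0.75 (control) and 1.63 (mutant) for Cxcl14. Those of Nptx1 were 0.55 and -0.33. In each case the difference between libraries was not tested, as there was 1 library per genotype. Nptx1 had a log2 ratio of cycling over other cells of 0.33 in control cells and -0.20 in the mutant library. With doublets removed the values were 0.31 and -0.19. Cxcl14 had a cycling ratio of -0.55 in control cells and 0.080 in the mutant library, and -0.63 and 0.094 with doublets removed. Col4a1 had a log2 ratio of Acp5-positive over Acp5-negative cells of 0.87 in control cells and -0.19 in the mutant library, and 0.88 and -0.20 with doublets removed. The control value of Col4a1 rests on 59 UMIs in Acp5-positive cells.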

How the results depend on the processing

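No paired analysis was possible because each genotype had 1 library and no replicate number, and for the same reason no library could be left out. Ratios of the 6 genes kept their sign in all 54 alternatives. Pgf ranged from 0.081 to 0.21 on the log2 scale, and scaling moved the median of all genes between -0.058 and 0.070. The median of the 6 was 2.00, and 1.91 with median-of-ratios scaling, 1.89 with totals without mitochondrial and ribosomal protein genes and 1.90 with equal weight per cell. The share of cells with 2 or more members depended on depth, being 1.74% in control cells and 7.66% in the mutant library at 2000 UMIs, 12.2% and 29.9% at 10000, and 26.3% and 41.9% without thinning. The Acp5 difference in the control was 4.04 points at 2000 UMIs and 13.5 without thinning, and in the mutant 14.6 without thinning and 9.46 with the osteoclast gate in place of Acp5. Its lowest value in mutant cells was 3.52 (0.18 to 6.84), without the neutrophil and stromal gates, and other alternatives reached 8.26, while those of the control library not given above lay between 5.0 and 9.61. Leaving out cells also changes the random draw, and a second draw alone gave 8.02 in control and 4.10 in mutant cells. The cycling differences were 12.1 (control) and 13.3 (mutant) points without thinning, where cycling cells are deeper, and otherwise lay on both sides of 0, from -1.82 to 1.25 and from -0.960 to 1.49. Leaving out shared barcodes, a second random draw and the comparisons of cell states with doublets removed were chosen after seeing the data. Of 70 alternatives of the main results 55 stayed within their counting error or spread and 15 moved. Nptx1 was under 2-fold in some of its 9 alternatives, at 0.90 on the log2 scale with the lowest.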
